A study of Macaca mulatta with 4 samples.

Results

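Naive B cells of rhesus macaque blood were described against the other B cells of the same libraries. The members were the barcodes that the deposited annotation labels "Naive B cell", and the reference was the barcodes labelled "B cell" in the same library, called other B cells here. The annotation gave 224 naive B cells and 655 other B cells among 6993 labelled cells in 4 single-cell RNA libraries. The libraries hold peripheral blood mononuclear cells (PBMCs) from whole blood, made with a 10x Genomics droplet kit that reads the 5' end of polyadenylated RNA. They belong to a study that followed the immune response of recipient macaques to islets made from human chemically induced pluripotent stem cells. One library, called Pre-IS, comes from blood drawn ahead of any immunosuppression, and the Post-IS library from blood drawn once immunosuppression had been given but no islets yet. The third was made at 4 weeks and the fourth at 8 weeks after transplantation, called 4 wpt and 8 wpt. The labels name no immunosuppressive drug and do not say whether the 4 libraries came from the same animal.

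Naive B cells are mature B cells that have not met their antigen. They recirculate between blood and lymphoid follicles, guided by adhesion molecules and chemokine receptors, and they carry unswitched IgM and IgD as antigen receptors together with the signalling chains CD79A and CD79B. Memory B cells arise from them after antigen contact, have often switched their antibody class, and carry costimulatory and adhesion molecules that let them respond quickly. A further memory population, called atypical or age-associated, is known for the integrin CD11c and the transcription factor T-bet.

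With 1 library per group there was no replicate spread, so no difference was tested and no p-value is given. Intervals are exact 95% intervals that cover counting error only, not the variation between animals or libraries. Those of gene levels and ratios pool the UMIs of a class, so they also leave out the variation between its cells. Levels are the UMIs (unique molecular identifiers, counts of captured RNA molecules) of a gene summed over the cells of a class, per 1000000 UMIs of that class (CPM). Naive B cells held 158643 UMIs in Pre-IS, 46497 at 4 wpt and 176949 at 8 wpt, and other B cells held 579390, 482555 and 403752. Gene levels were therefore compared in Pre-IS and 8 wpt, where 110 and 99 naive B cells were labelled, and 4 wpt values from 14 naive B cells stand beside them. The median UMI count of a naive B cell was 1398 in Pre-IS and 1787 at 8 wpt, against 1512 and 2134 in other B cells and 1526 and 1810 in T cells. The 4 wpt library was the deepest, with a median of 3551 UMIs over all its cells against 1168 to 1877 in the others. Over all pairs of libraries 25 cell barcodes were shared, and 0 of them carried a B cell label in both.

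The naive label was checked against markers of the B lineage. MS4A1, which encodes the B cell surface protein CD20, stood at 1456 CPM in naive and 2327 CPM in other B cells of Pre-IS, at 1419 and 1639 at 4 wpt and at 1543 and 1900 at 8 wpt. CD79A stood at 1929 CPM in naive B cells of Pre-IS, 1656 at 4 wpt and 1859 at 8 wpt, and PAX5, the B lineage transcription factor, at 170, 215 and 119 CPM. In the 15 sets of at least 50 cells of any non-B label in 1 library, the highest levels were 27.5 CPM for MS4A1, 62.6 for CD79A, 21.8 for CD79B and 1.92 for PAX5. All 224 naive B cells held a UMI of at least 1 of the 4 markers, while 15 of 655 other B cells held none. Among the markers of the naive state, TCL1A, FCER2 and IL4R were higher in naive than in other B cells in Pre-IS and at 8 wpt, with values below. IGHD, the heavy chain gene that defines the IgD of naive B cells, was not analysed here, nor were the memory markers CD27 and FAS. The naive marker BACH2 and the memory marker CD80 were also set for this check, and no values are given for them here.

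Naive B cells made up the largest share of blood cells in Pre-IS and the smallest in Post-IS. They were 110 of 1928 cells in Pre-IS, or 5.71% (4.71 to 6.84). In Post-IS, 1 of 603 cells carried the label, 0.166% (0.0042 to 0.921). At 4 wpt 14 of 1882 cells did, 0.744% (0.407 to 1.25), and at 8 wpt 99 of 2580, 3.84% (3.13 to 4.65). The Pre-IS and 8 wpt intervals overlapped neither each other nor those of Post-IS and 4 wpt, whose own intervals overlapped. Other B cells followed a different course: they were 18.2% (16.5 to 20) of cells in Pre-IS, 1.99% (1.03 to 3.45) in Post-IS, 6.06% (5.02 to 7.23) at 4 wpt and 6.90% (5.95 to 7.95) at 8 wpt. From 4 to 8 wpt the intervals of the naive share did not meet, while those of the other B share overlapped.

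Within the B lineage, the naive share was highest at 8 wpt. Naive B cells were 23.9% (20 to 28) of the cells of both B labels in Pre-IS and 7.69% (0.195 to 36.0) of the 13 in Post-IS. They were 10.9% (6.11 to 17.7) at 4 wpt and 35.7% (30.1 to 41.7) at 8 wpt. There were 0.313 naive B cells per other B cell in Pre-IS, 0.123 at 4 wpt and 0.556 at 8 wpt. These are shares of captured and labelled cells and not cell concentrations in blood, and the differences between libraries have no replicate check.

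**Figure D1:**
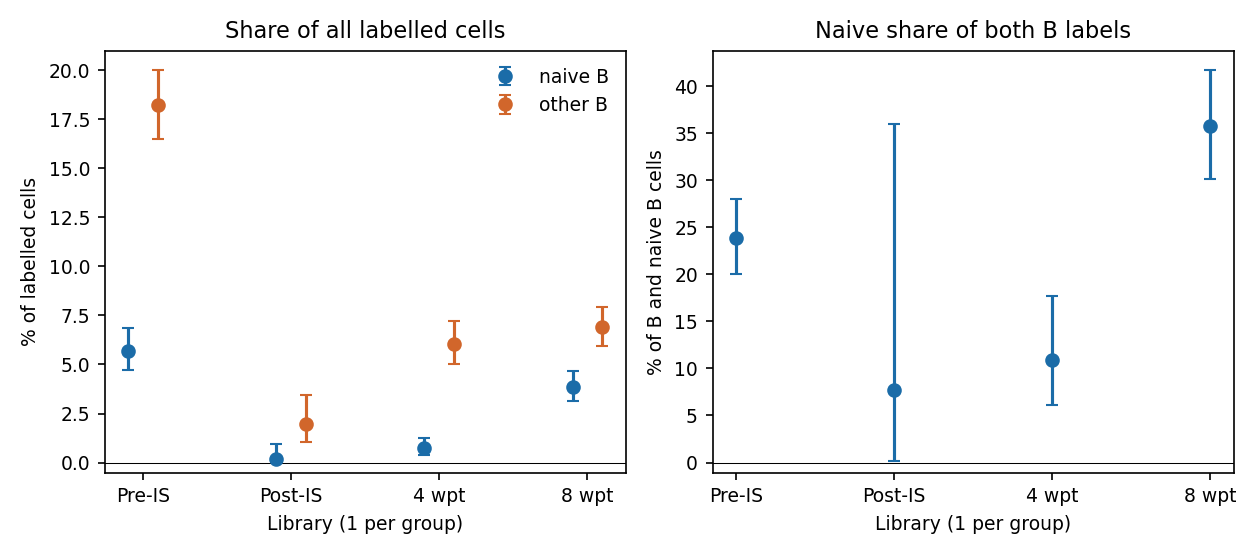
Share of naive B cells (and of other B cells) among all labelled cells in percent, and share of naive B cells among the cells of both B labels in percent, by library, with 1 library per group; points are shares and bars exact 95% binomial intervals. The naive share of all cells runs from 0.166% in Post-IS to 5.71% in Pre-IS, and the naive share of B lineage cells is highest at 8 wpt, at 35.7%.

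Naive and other B cells differed in the same named genes in Pre-IS and at 8 wpt. The authors' labels rest on the expression of these same cells, so gene differences between the labels are a description and not a test. Among 4855 genes with at least 20 UMIs over both classes in Pre-IS, 615 (12.7%) were at least 1.5-fold higher in naive B cells and 1226 (25.3%) at least 1.5-fold lower. At 8 wpt, 511 of 4069 genes (12.6%) were higher and 1117 (27.5%) lower. The median log2 ratio over all compared genes was -0.15 in both libraries. Of the genes compared in both libraries, 187 were higher in both, which is 42.5% of those higher in Pre-IS and 39.0% of those higher at 8 wpt. A further 495 were lower in both, 51.2% and 47.0% of the lower genes. In opposite directions, 47 were higher in Pre-IS and lower at 8 wpt, and 52 the reverse. Across the 3901 genes the Pearson correlation of the 2 sets of log2 ratios was 0.52, and across 326 genes with at least 200 UMIs in each library, a subset chosen after the values were seen, it was 0.88; genes are not independent replicates and the 2 libraries share the annotation.

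Ribosomal protein genes took a larger share of the RNA in naive B cells. They held 29.3% of UMIs in naive against 23.0% in other B cells of Pre-IS, 25.2% against 21.9% at 4 wpt and 29.2% against 22.7% at 8 wpt. T cells held 31.8% in Pre-IS, 30.0% at 4 wpt and 30.1% at 8 wpt, so the naive share lay nearer to T cells in Pre-IS and 8 wpt and nearer to other B cells at 4 wpt. In 73 ribosomal protein genes compared in Pre-IS the median log2 ratio was 0.34, and 0.34 in 74 at 8 wpt. This family was picked out after its values were seen. Scaling by total UMIs without ribosomal, mitochondrial, haemoglobin and immunoglobulin genes moved the median of all genes up by 0.12 in each library, and the median of ratios by 0.12 and 0.13. The higher genes then made up 44.8% and 44.2% of the Pre-IS genes past 1.5-fold, against 33.4% with plain totals, and 42.1% and 42.8% at 8 wpt, against 31.4%.

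**Figure D2:**
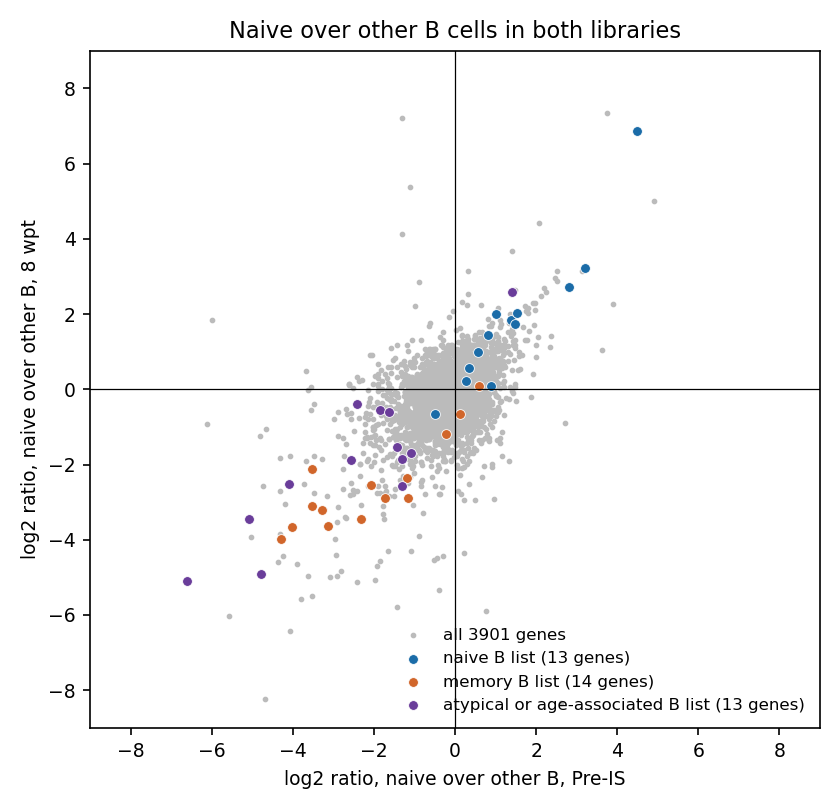
Log2 ratio of CPM in naive over other B cells in Pre-IS (x axis) and at 8 wpt (y axis) for 3901 genes with at least 20 UMIs over both classes in each library; coloured points are genes of the naive B, memory B and atypical memory lists. List genes of the naive state lie mostly in the upper right and those of both memory lists mostly in the lower left, and over all points the Pearson correlation is 0.52.

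Receptors that guide lymphocytes into lymph nodes and follicles were higher in naive B cells. CXCR4, the receptor for CXCL12, stood at 492 CPM (389 to 614) in naive and 15.5 CPM (7.1 to 29.5) in other B cells of Pre-IS, at 280 and 22.8 at 4 wpt, and at 356 (274 to 456) and 9.91 (2.7 to 25.4) at 8 wpt. Its ratio of 31.6 (15.8 to 71.8) in Pre-IS and 35.9 (13.4 to 136) at 8 wpt was the highest among the homing genes compared. A CXCR4 UMI was found in 43.6% of naive and 2.28% of other B cells in Pre-IS, and in 38.4% and 2.25% at 8 wpt. T cells of similar depth gave 13.6% and 11.4%.

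CXCR5, which leads B cells to follicles, was at 183 CPM in naive and 65.6 in other B cells of Pre-IS, at 150 and 53.9 at 4 wpt and at 141 and 42.1 at 8 wpt. CCR7, the receptor for the lymph node chemokines CCL19 and CCL21, was at 120 and 41.4 CPM, 172 and 35.2, and 73.5 and 17.3. The ratios were 2.79 (1.66 to 4.64) and 3.36 (1.74 to 6.62) for CXCR5 and 2.89 (1.5 to 5.51) and 4.24 (1.57 to 12.5) for CCR7, so both genes were higher in naive B cells in both libraries. S1PR1, which lets lymphocytes leave lymphoid tissue, was past 1.5-fold only at 8 wpt, with a log2 ratio of 1.32.

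The homing list as a whole was split. Of 16 members compared in Pre-IS, 4 were higher in naive B cells and 6 lower, with a median log2 ratio of 0.00, and at 8 wpt 5 of 15 were higher and 7 lower, with a median of -0.11. Over all genes compared the shares were 12.7% higher and 25.3% lower in Pre-IS and 12.6% and 27.5% at 8 wpt. The lower members were adhesion molecules and the inflammatory chemokine receptor CXCR3. CXCR3 was at 0 UMIs in naive and 107 CPM in other B cells of Pre-IS, at 0 and 89.1 CPM at 4 wpt and at 5.65 and 91.6 CPM at 8 wpt. Against a floor of 3 UMIs in the naive class it was at least 5.66-fold lower in Pre-IS, and at 8 wpt 16.2-fold lower (2.73 to 658) from 1 naive UMI. The integrin chains ITGB1, ITGB2 and ITGB7, the hyaluronan receptor CD44 and the selectin ligand SELPLG were also lower, with Pre-IS log2 ratios of -1.19, -1.32, -0.73, -1.45 and -1.28, the interval for ITGB7 including 1.

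Genes known for the naive state were higher in the naive class as a group. Of the 22 genes of the naive B list 20 were in the tables, and 10 of the 14 with enough UMIs to compare were at least 1.5-fold higher and 0 lower in Pre-IS (background 12.7% higher), with a median log2 ratio of 1.00. At 8 wpt 11 of 15 were higher and 1 lower (background 12.6%), with a median of 1.73; the lower one was APLP2, at -0.65, with a ratio interval that includes 1. TCL1A, a coactivator of AKT that is lost as B cells mature into memory, stood at 170 CPM in naive and 6.90 CPM in other B cells of Pre-IS, at 86.0 CPM and 0 at 4 wpt and at 141 CPM and 0 at 8 wpt. The ratio was 24.6 (8.59 to 97) in Pre-IS and at least 19.0 at 8 wpt, where no other B cell held a UMI. FCER2 encodes CD23, the low-affinity IgE receptor of resting naive B cells. It stood at 384.5 CPM (294 to 494) and 41.4 CPM (26.5 to 61.6) in Pre-IS, at 215 and 10.4 at 4 wpt and at 356 (274 to 456) and 37.15 (20.8 to 61.3) at 8 wpt. Its ratios of 9.28 (5.70 to 15.6) and 9.58 (5.39 to 18.1) were alike in the 2 libraries.

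IL4R, the interleukin-4 receptor chain, stood at 114 CPM in naive and 57.0 in other B cells of Pre-IS and at 102 and 24.8 at 8 wpt, ratios of 1.99 (1.06 to 3.64) and 4.11 (1.80 to 9.96). BTLA, an inhibitory receptor of lymphocytes, stood at 448 and 171 CPM in Pre-IS, 258 and 74.6 at 4 wpt and 548 and 154 at 8 wpt, which gave 2.62 (1.90 to 3.59) and 3.57 (2.57 to 4.99). CR2, the complement receptor CD21, stood at 101 and 5.18 CPM in Pre-IS, 86.0 and 2.07 at 4 wpt and 147 and 4.95 at 8 wpt. Its 19 UMIs in Pre-IS fell short of the 20 needed for comparison, and at 8 wpt its ratio was 29.7 (7.43 to 258). All 3 receptors were thus higher in the naive class wherever they were compared, although with few UMIs for CR2 in other B cells.

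Of the transitional B list, which holds genes of recent bone marrow emigrants, 3 of 4 members compared were higher in Pre-IS and 4 of 4 at 8 wpt (background 12.7% and 12.6% higher). CD9, a tetraspanin, was at 139 CPM in naive and 32.8 in other B cells of Pre-IS, at 64.5 and 8.29 at 4 wpt and at 130 and 4.95 at 8 wpt. CD38, an ectoenzyme, was at 410 and 212 CPM, 538 and 199, and 463 and 198, and VPREB3, a surrogate light chain partner, at 114 and 1.73, 301 and 8.29, and 164 and 12.4 CPM. The CD38 ratios of 1.93 (1.41 to 2.63) and 2.34 (1.70 to 3.22) were smaller than those of CD9 at 8 wpt, 26.2 (6.48 to 230), and VPREB3 at 8 wpt, 13.2 (5.07 to 43.8). Of the markers of B cell precursors, MME and DNTT were at 0 UMIs in both classes of Pre-IS and 8 wpt. VPREB1, a surrogate light chain gene, had too few UMIs to compare, at 6.30 CPM in naive and 24.2 in other B cells of Pre-IS, 172 and 2.07 at 4 wpt and 56.5 and 4.95 at 8 wpt.

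Genes of memory B cells were lower in the naive class. Of the 26 genes of the memory B list 21 were in the tables, and 12 of the 15 compared were at least 1.5-fold lower and 0 higher in Pre-IS (background 25.3% lower), with a median log2 ratio of -2.08, or -1.73 with members at 0 UMIs set to the floor. At 8 wpt 13 of 14 were lower and 0 higher (background 27.5%), with a median of -2.90. S100A4, a calcium-binding protein of motile and antigen-experienced lymphocytes, stood at 63.0 CPM (30.2 to 116) in naive and 1291 CPM (1200 to 1387) in other B cells of Pre-IS. The values were 64.5 and 1475 CPM at 4 wpt and 84.8 (47.5 to 140) and 1375 (1263 to 1494) at 8 wpt. Other B cells were thus 20.5-fold higher (11.1 to 42.9) in Pre-IS and 16.2-fold higher (9.75 to 29.2) at 8 wpt. At 8 wpt 11 of the 15 naive UMIs lay in 2 cells that also held at least 2 T cell, NK cell or monocyte markers, and without such cells the log2 ratio of S100A4 moved from -3.97 to -5.67.

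S100A10, the light chain partner of annexin A2, stood at 214 CPM in naive and 2496 in other B cells of Pre-IS, 301 and 2489 at 4 wpt and 288 and 2479 at 8 wpt. CRIP1, a LIM domain protein, stood at 403 and 3568 CPM, 624 and 3610, and 373 and 4676. Other B cells were 11.6-fold (8.29 to 16.9) and 8.60-fold (6.49 to 11.6) higher for S100A10 and 8.84-fold (6.90 to 11.5) and 12.5-fold (9.81 to 16.3) higher for CRIP1. VIM, the intermediate filament vimentin, stood at 214 and 916 CPM in Pre-IS, 366 and 1519 at 4 wpt and 175 and 1043 at 8 wpt, other B cells being 4.28-fold (3.02 to 6.24) and 5.95-fold (4.13 to 8.87) higher.

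TNFRSF13B, which encodes the survival receptor TACI, stood at 12.6 CPM in naive and 154 in other B cells of Pre-IS, 21.5 and 184 at 4 wpt and 11.3 and 129 at 8 wpt. CD86, the costimulatory ligand of CD28, stood at 6.30 and 109 CPM, 64.5 and 160, and 22.6 and 109. Other B cells were 12.2-fold (3.27 to 102) and 11.4-fold (3 to 96.6) higher for TNFRSF13B, and 17.2-fold (2.98 to 692) and 4.82-fold (1.75 to 18.5) higher for CD86. The intervals are wide because 1 to 4 naive UMIs stand behind each value. AIM2, a sensor of cytosolic DNA and a member of the memory list, went the other way without passing 1.5-fold, at 246 CPM in naive and 166 in other B cells of Pre-IS and 141 and 134 at 8 wpt.

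The atypical memory list was lower as well, with 1 exception. In Pre-IS 12 of 13 members compared were lower (background 25.3%) and 1 higher, with a median log2 ratio of -1.85 (-1.63 with the floor), and at 8 wpt 10 of 13 were lower (background 27.5%) and 1 higher, with a median of -1.86. ITGAX, which encodes CD11c, stood at 12.6 CPM in naive and 435 in other B cells of Pre-IS, 0 and 452 at 4 wpt and 11.3 and 421 at 8 wpt. FGR, a SRC family kinase, stood at 0 and 307 CPM, 0 and 336, and 5.65 and 290. Other B cells were 34.5-fold (9.45 to 286) and 37.2-fold (10.2 to 310) higher for ITGAX and, for FGR, at least 16.3-fold higher in Pre-IS and 51.3-fold (9.03 to 2040) at 8 wpt from 1 naive UMI. ZEB2, a transcription factor of the atypical subset, was at 88.2 and 330 CPM in Pre-IS but at 141 and 208 at 8 wpt, where the ratio of other over naive of 1.47 (0.933 to 2.4) included 1. TBX21, which encodes T-bet, was at 6.30 and 55.2 CPM in Pre-IS and 16.9 and 71.8 at 8 wpt. The exception was CD72, described with the antigen receptor genes.

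**Figure D3:**
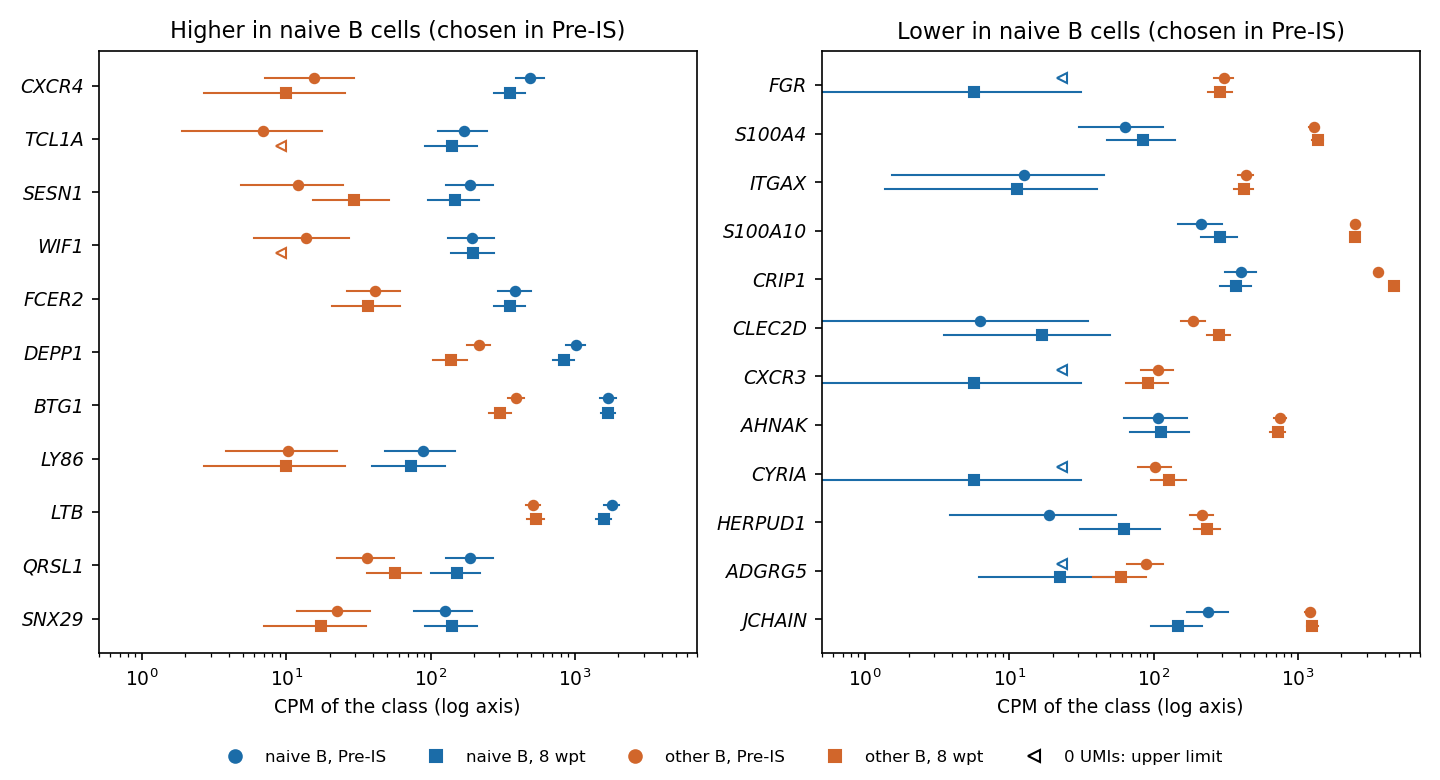
CPM on a log axis for 11 of the 12 genes higher and the 12 genes lower in naive B cells that the ranking by interval bound picked in Pre-IS, in naive and other B cells of Pre-IS and 8 wpt; bars are exact 95% Poisson intervals, and a class at 0 UMIs is drawn as an open triangle at the upper limit of its interval. At 8 wpt each gene drawn lies on the same side as in Pre-IS.

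Ranking the Pre-IS genes by the interval bound of the ratio nearest to 1 picked 12 higher and 12 lower genes, and 8 wpt took no part in the choice. At 8 wpt all 12 higher genes and all 12 lower genes were again past 1.5-fold in the same direction, with 1 higher gene, LY86, under the 20 UMIs set for comparison. The log2 ratios at 8 wpt ran from 1.42 to 7.34 with a median of 2.75 in the higher genes and from -5.10 to -1.26 with a median of -3.55 in the lower ones. The higher genes besides CXCR4, TCL1A and FCER2 follow. BTG1, an antiproliferative factor of resting lymphocytes, stood at 1702 CPM in naive and 392 in other B cells of Pre-IS, 731 and 257 at 4 wpt and 1695 and 305 at 8 wpt, ratios of 4.34 (3.63 to 5.21) and 5.57 (4.5 to 6.92). SESN1, a stress-induced inhibitor of mTORC1, stood at 189 and 12.1 CPM, 108 and 33.2, and 147 and 29.7, ratios of 15.7 (6.74 to 42.2) and 4.94 (2.41 to 10.8). DEPP1, a FOXO target, stood at 1015 and 216 CPM, 387 and 102, and 842 and 139, ratios of 4.70 (3.7 to 5.99) and 6.07 (4.44 to 8.41). In each of the 3 genes every naive value lay above every value of other B cells over the 3 libraries.

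WIF1, a secreted inhibitor of WNT ligands, stood at 195 CPM in naive and 13.8 in other B cells of Pre-IS, at 107.5 and 0 at 4 wpt and at 198 and 0 at 8 wpt. It was found in 23 of 110 naive B cells in Pre-IS and 21 of 99 at 8 wpt, with a ratio of 14.2 (6.36 to 35.6) in Pre-IS and at least 26.6 at 8 wpt. LTB, the membrane anchor of lymphotoxin, stood at 1809 and 513 CPM in Pre-IS, 1032 and 582 at 4 wpt and 1588 and 538 at 8 wpt, ratios of 3.53 (2.99 to 4.17) and 2.96 (2.47 to 3.54). LY86, the MD-1 partner of the receptor RP105, stood at 88.2 and 10.4 CPM, 86.0 and 4.14, and 73.5 and 9.91. QRSL1 and SNX29 completed the set, with Pre-IS ratios of 5.22 and 5.62.

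Among the lower genes outside the memory and atypical descriptions, CLEC2D, the ligand of the NK receptor CD161, stood at 6.30 CPM in naive and 188 in other B cells of Pre-IS, 43.0 and 222 at 4 wpt and 16.9 and 282 at 8 wpt. Other B cells were 29.9-fold (5.25 to 1190) and 16.6-fold (5.56 to 82.0) higher. All 3 naive UMIs of CLEC2D at 8 wpt lay in the 2 cells with markers of another type. AHNAK, a large scaffold protein, stood at 107 and 751 CPM, 344 and 1446, and 113 and 726, other B cells being 7.01-fold (4.33 to 12.1) and 6.42-fold (4.08 to 10.7) higher. HERPUD1, an endoplasmic reticulum stress protein, stood at 18.9 and 216 CPM, 86.0 and 317, and 62.2 and 235, other B cells being 11.4-fold (3.81 to 56.1) and 3.79-fold (2.02 to 7.84) higher. CYRIA and ADGRG5 held no UMI in naive B cells of Pre-IS, and were at least 5.39-fold and 4.66-fold lower there. At 8 wpt ADGRG5 stood at 22.6 and 59.4 CPM, and its ratio of other over naive of 2.63 (0.903 to 10.4) included 1.

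The antigen receptor complex differed in single members and not as a whole. Of the B cell receptor signalling list, 5 of 30 members compared were higher in naive B cells and 3 lower in Pre-IS, with a median log2 ratio of -0.04. At 8 wpt 7 of 30 were higher and 5 lower, with a median of -0.15. The background over all genes was 12.7% higher and 25.3% lower in Pre-IS, and 12.6% and 27.5% at 8 wpt. CD79B, the signalling chain Ig beta, stood at 2502 CPM (2262 to 2761) in naive and 1648 (1545 to 1756) in other B cells of Pre-IS, 1699 (1345 to 2118) and 626 (557 to 701) at 4 wpt and 2238 (2023 to 2470) and 874 (786 to 970) at 8 wpt. CD72, an inhibitory co-receptor, stood at 561 CPM (451 to 690) and 214 (178 to 255), 753 (524 to 1047) and 35.2 (20.5 to 56.4), and 542 (440 to 662) and 89.2 (62.5 to 123.4). Both genes were higher in naive B cells in all 3 libraries. The CD79B ratio was 1.52 (1.35 to 1.71) in Pre-IS, at the edge of the 1.5-fold threshold, and 2.56 (2.21 to 2.96) at 8 wpt, and the CD72 ratio 2.62 (1.97 to 3.47) in Pre-IS and 6.08 (4.11 to 9.19) at 8 wpt. CD79A did not follow CD79B: its levels in other B cells were 2021, 1225 and 1612 CPM, within 1.5-fold of the naive levels in each library.

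FCRL1, an Fc receptor-like activating co-receptor, was higher in naive B cells, at 511 and 147 CPM in Pre-IS, 280 and 64.2 at 4 wpt and 424 and 94.1 at 8 wpt, with ratios of 3.48 (2.54 to 4.78) and 4.5 (3.01 to 6.84). BLNK, the adaptor that links the receptor to downstream kinases, was the member that changed sides. It stood at 120 CPM in naive and 75.9 in other B cells of Pre-IS and at 56.5 and 99.1 at 8 wpt, with ratio intervals that include 1 in both libraries.

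The heavy chain of IgM was found in most naive B cells. IGHM stood at 2332 CPM (2101 to 2582) in naive and 1852 (1743 to 1966) in other B cells of Pre-IS, 3291 and 974 at 4 wpt and 1758 (1568 to 1964) and 1189 (1085 to 1300) at 8 wpt. The ratios of 1.26 (1.12 to 1.42) and 1.48 (1.28 to 1.71) stayed under 1.5-fold. A UMI of IGHM was found in 98 of 110 naive B cells (89.1%) against 75.5% of other B cells in Pre-IS and in 93 of 99 (93.9%) against 70.8% at 8 wpt, with 1.07% and 1.62% in T cells. IGKC, the kappa light chain, was lower in naive B cells, at 511 and 806 CPM in Pre-IS and 379 and 736 at 8 wpt, but alike at 4 wpt at 688 and 682 CPM. Constant region genes of IgG, IgA and lambda chains were not analysed here, so class switching could not be read.

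JCHAIN, the joining chain of secreted IgM and IgA, was lower in naive B cells in the sums, but not in the share of cells in Pre-IS. It stood at 240 CPM in naive and 1212 in other B cells of Pre-IS, 581 and 642 at 4 wpt and 147 and 1256 at 8 wpt. In Pre-IS 1 other B cell held 499 of the 702 JCHAIN UMIs of its class (71.1%), and a JCHAIN UMI was found in 21.8% of naive and 11.7% of other B cells. At 8 wpt 18.2% of naive and 19.7% of other B cells held one, against 0.238% and 0.0852% of T cells. Without the cells that held at least 20 UMIs of JCHAIN, of which 0 were naive, the log2 ratio went from -2.32 to -0.16 in Pre-IS and from -3.07 to -1.24 at 8 wpt. JCHAIN was among the 12 lower genes ranked in Pre-IS, although the ranking interval does not cover such differences between cells. Of the antibody-secreting cell list 1 of 10 members was higher and 5 lower in Pre-IS and 2 of 10 higher and 4 lower at 8 wpt, against a background of 12.7% higher and 25.3% lower in Pre-IS and 12.6% and 27.5% at 8 wpt. PRDM1 and SDC1, which define plasma cells, were at 0 UMIs in both classes of Pre-IS, and at 8 wpt in naive B cells, where SDC1 was also at 0 in other B cells.

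Transcription factors of the B lineage differed in both directions. In Pre-IS 5 of 23 members compared were higher in naive B cells and 7 lower, with a median log2 ratio of -0.04, and at 8 wpt 7 of 21 were higher and 6 lower. The background was 12.7% higher and 25.3% lower, then 12.6% and 27.5%, so the lower shares were near it. PAX5, FOXP1, IRF4, STAP1 and REL were higher in both libraries, and SPIB, SPI1 and POU2F2 lower in both, although the ratio intervals of STAP1 in both libraries and of REL at 8 wpt included 1. PAX5 stood at 170 CPM in naive and 74.2 in other B cells of Pre-IS, 215 and 39.4 at 4 wpt and 119 and 47.1 at 8 wpt. FOXP1, a repressor that keeps mature B cells quiescent, stood at 176 and 102 CPM in Pre-IS and 175 and 64.4 at 8 wpt. IRF4 stood at 132 and 58.7 CPM and at 136 and 71.8, and POU2F2, which encodes OCT2, at 107 and 312 and at 102 and 228. Other B cells were 2.92-fold (1.77 to 5.12) and 2.24-fold (1.34 to 3.95) higher for POU2F2. IRF8 was alike in Pre-IS at 126 and 121 CPM and lower in naive B cells at 8 wpt, at 56.5 and 188 CPM.

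Receptors for survival and help differed by receptor. CD40, the receptor for T cell help, stood at 403 CPM in naive and 152 in other B cells of Pre-IS, 323 and 95.3 at 4 wpt and 322 and 106 at 8 wpt, ratios of 2.66 (1.89 to 3.71) and 3.02 (2 to 4.6). TNFRSF13C, which encodes the BAFF receptor, stood at 75.6 and 25.9 CPM in Pre-IS, 129 and 16.6 at 4 wpt and 62.2 and 9.91 at 8 wpt, a ratio of 2.92 (1.25 to 6.69) in Pre-IS and too few UMIs for comparison at 8 wpt. TNFRSF13B, the other receptor for BAFF listed here, was lower as given above. Of the BAFF and survival list 2 of 7 members were higher and 3 lower in Pre-IS, and 1 of 6 higher and 3 lower at 8 wpt, with the same background of 12.7% higher and 25.3% lower in Pre-IS and 12.6% and 27.5% at 8 wpt.

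Of the activation list 3 of 14 members were higher and 6 lower in Pre-IS, and 1 of 11 higher and 5 lower at 8 wpt. The background for the activation list and the antigen presentation list was 12.7% higher and 25.3% lower in Pre-IS and 12.6% and 27.5% at 8 wpt. The median log2 ratios of the activation list were -0.43 and -0.49. CD69, an early activation antigen, was among the higher members in Pre-IS, with a log2 ratio of 1.59. JUN and CD86 were among the lower members in both libraries, with log2 ratios of -3.69 and -3.54 in Pre-IS and -1.91 and -2.12 at 8 wpt. Of the antigen presentation list 4 of 13 members were higher and 1 lower in Pre-IS, and 3 of 13 higher and 2 lower at 8 wpt, with medians of 0.28 and 0.26. The class II chain MAMU-DRA stood at 6644 CPM in naive and 6310 in other B cells of Pre-IS, 5914 and 6389 at 4 wpt and 6906 and 6375 at 8 wpt, log2 ratios of 0.07 and 0.12. MAMU-DMB, which edits the peptides on class II molecules, stood at 1525 and 1058 CPM, 1032 and 653, and 1735 and 889, ratios of 1.44 (1.24 to 1.68) and 1.95 (1.67 to 2.28). IFI30, the thiol reductase of the antigen processing compartment, was lower in naive B cells, at 977 and 1640 CPM, 839 and 2083, and 1012 and 1741.

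Of the list of glucocorticoid-responsive genes 5 of 13 members were higher and 1 lower in Pre-IS, and 6 of 12 higher and 2 lower at 8 wpt. For each list in this group all genes gave 12.7% higher and 25.3% lower in Pre-IS and 12.6% and 27.5% at 8 wpt. The higher members included CXCR4, BTG1 and TXNIP in both libraries, the latter at 775 and 423 CPM in Pre-IS and 656 and 372 at 8 wpt. The lower members at 8 wpt were DUSP1 and TSC22D3, with log2 ratios of -0.93 and -0.76 there and -0.41 and -0.02 in Pre-IS. Of the interferon list 1 of 12 members was higher and 2 lower in Pre-IS and 3 of 13 higher and 1 lower at 8 wpt. Of the calcineurin and NFAT list 1 of 9 was higher and 2 lower, then 1 of 7 and 2. Of the mTOR and glycolysis list 1 of 16 was higher and 3 lower, then 0 of 14 and 3. Of the proliferation list 2 of 7 were higher and 0 lower, then 1 of 6 and 1, and of the apoptosis and p53 list 2 of 12 and 3, then 2 of 11 and 2. Only 1 germinal centre gene in Pre-IS and 2 at 8 wpt had enough UMIs to compare.

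Single cells showed how far the labels overlap. Each cell with at least 1000 UMIs was thinned to 1000 UMIs, which kept 90 naive and 292 other B cells in Pre-IS, 13 and 108 at 4 wpt and 94 and 172 at 8 wpt. The naive B list summed to a median of 7 UMIs in naive and 3.5 in other B cells of Pre-IS, 8 and 2 at 4 wpt and 6 and 3 at 8 wpt. The memory B list summed to a median of 1 UMI in naive and 9 in other B cells of Pre-IS, 2 and 10.5 at 4 wpt and 1 and 10 at 8 wpt. The memory sum lay above the naive sum in 13 of 90 naive B cells in Pre-IS (14.4%, 7.92 to 23.4) and in 3 of 94 at 8 wpt (3.19%, 0.663 to 9.05). In other B cells it did so in 217 of 292 (74.3%, 68.9 to 79.2) and 133 of 172 (77.3%, 70.3 to 83.4). At 4 wpt the memory sum lay above the naive sum in 0 of 13 naive B cells (0%, 0 to 24.7). It did so there in 101 of 108 other B cells (93.5%, 87.1 to 97.35). In the opposite corner, 61 of 292 other B cells in Pre-IS and 31 of 172 at 8 wpt had a naive sum above their memory sum. At 4 wpt only 5 of 108 did. The label of other B cells thus holds cells on both sides of the line, with few on the naive side at 4 wpt.

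After the same thinning, BTG1 was found in 74.4% and 28.8% of cells in Pre-IS and FCER2 in 31.1% and 2.74%. S100A10 was found in 20% of naive and 81.9% of other B cells in Pre-IS and in 16.0% and 86.6% at 8 wpt, and ITGAX in 1.11% and 30.1%, then 2.13% and 30.2%. For these genes the share of cells thus differed in the same direction as the sums. Other genes lay in fewer cells: in Pre-IS TCL1A was found in 15.6% of naive B cells and TNFRSF13B in 13.0% of other B cells. JCHAIN in Pre-IS, described above, was an exception. So was IGKC, lower in the naive sums but found without thinning in 45 of 110 naive and 147 of 351 other B cells of Pre-IS.

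**Figure D4:**
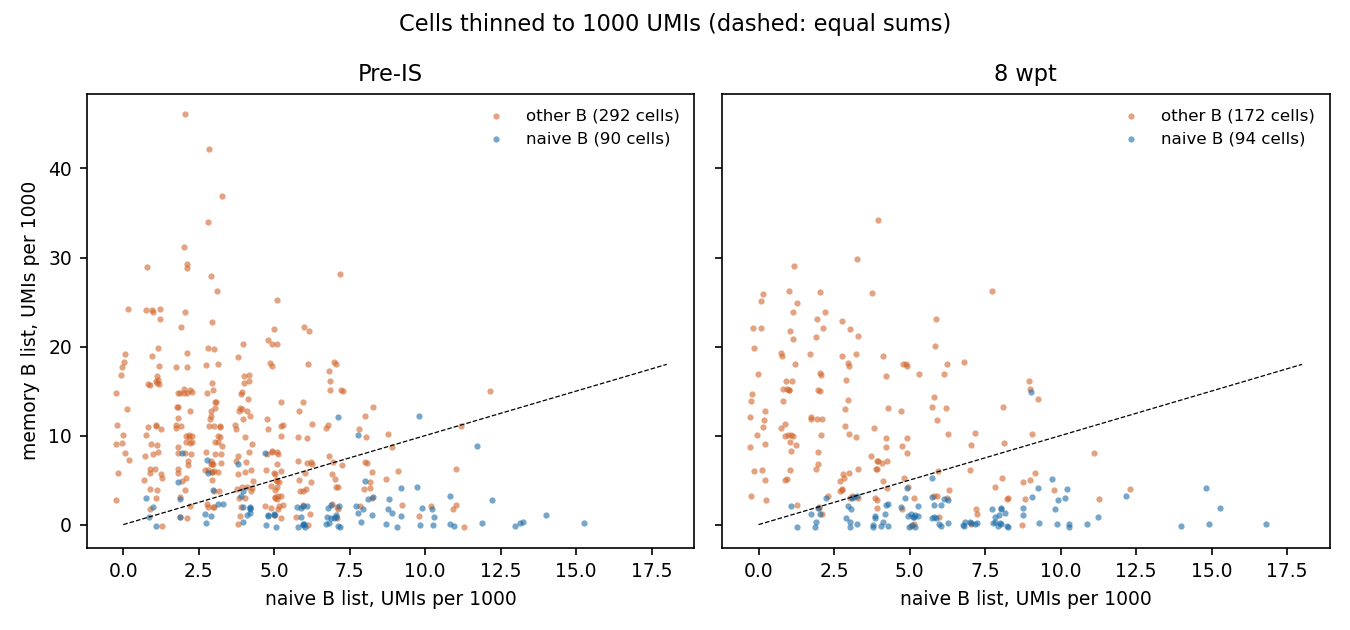
UMIs of the memory B list against UMIs of the naive B list per cell after thinning to 1000 UMIs, in naive and other B cells of Pre-IS and 8 wpt, with a small seeded jitter; the dashed line marks equal sums. Naive B cells lie mostly below the line and other B cells mostly above it, with 13 of 90 and 3 of 94 naive B cells above it.

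Naive B cells of Pre-IS and 8 wpt were also set against each other. Between the 2 libraries 2282 genes were compared within naive B cells, of which 258 (11.3%) were at least 1.5-fold higher at 8 wpt and 246 (10.8%) lower, with a median log2 ratio of -0.0013. In other B cells 653 of 5816 genes (11.2%) were higher and 650 (11.2%) lower. Of the naive B list 1 of 15 members was higher and 1 lower at 8 wpt within naive B cells, with a median of -0.11, and of the memory B list 0 of 7 were higher and 2 lower. The transitional list had 0 of 4 members in each direction, the homing list 0 of 12 higher and 1 lower, and the antibody-secreting list 3 of 8 higher and 2 lower. Within other B cells 1 of 14 naive list genes was higher and 6 lower, with a median of -0.27. The naive and other B comparisons share both libraries, and neither has a replicate.

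The ranking by interval bound named 4 higher and 3 lower genes within naive B cells. UFM1, a ubiquitin-like modifier, stood at 12.6 CPM in naive B cells of Pre-IS, 86.0 at 4 wpt and 113 at 8 wpt, a ratio of 8.96 (2.18 to 79.1) from Pre-IS to 8 wpt, against 1.27 in other B cells (a log2 ratio of 0.35 there, and 1.15 with cells thinned to 1000 UMIs). CCT4, a subunit of the cytosolic chaperonin, stood at 75.6, 108 and 226 CPM, a ratio of 2.99 (1.54 to 6.26) against 1.38 in other B cells, where thinning turned the log2 ratio from 0.46 to -0.52. MYNN, a zinc finger protein, and CEP57, a centrosomal protein, had ratios of 5.38 (1.57 to 28.5) and 4.48 (1.5 to 18). Lower at 8 wpt were C10orf143, at 107, 21.5 and 16.9 CPM, SPTAN1, a spectrin chain, at 120, 129 and 28.3, and CENPM, a centromere protein, at 164, 150 and 45.2. Their levels at Pre-IS were 6.32-fold (1.83 to 33.7), 4.24-fold (1.53 to 14.5) and 3.62-fold (1.59 to 9.26) higher than at 8 wpt. All 7 rest on few UMIs, and none of the differences from other B cells was tested.

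Of the B cell receptor list 0 of 26 members were higher and 4 lower at 8 wpt within naive B cells, with a median log2 ratio of -0.20 (background 11.3% higher and 10.8% lower). Of the interferon list 3 of 6 were higher and 0 lower, with a median of 0.54, and within other B cells 5 of 16 were higher and 2 lower, with a median of 0.26 (background 11.2% in each direction). TSC22D3, a glucocorticoid-induced leucine zipper protein, stood at 580, 796 and 294 CPM in naive B cells, so that Pre-IS was 1.97-fold (1.39 to 2.83) above 8 wpt. S100A6 stood at 265, 624 and 96.1 CPM, with Pre-IS 2.76-fold (1.53 to 5.16) above 8 wpt.

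CD79B and CD72 were picked after their values were seen, because from Pre-IS to 8 wpt they differed more in other B cells than in naive B cells. At 4 wpt the CD79B interval of naive B cells also lay below that of Pre-IS. The log2 ratio of 8 wpt over Pre-IS for CD79B was -0.16 in naive and -0.91 in other B cells, and for CD72 -0.05 (0.088 with thinned cells) and -1.25. Pre-IS was 1.89-fold (1.67 to 2.14) above 8 wpt in other B cells for CD79B and 2.4-fold (1.64 to 3.58) for CD72, whereas the naive ratios of 0.894 (0.776 to 1.03) and 0.967 (0.717 to 1.30) included 1. The difference between the classes was not tested. In the other B cells whose memory sum exceeded their naive sum, CD79B stood at 1558 CPM in Pre-IS, 634 at 4 wpt and 699 at 8 wpt after thinning. In the remaining 75, 7 and 39 other B cells it stood at 2467, 714 (232 to 1667, from 5 UMIs) and 1718 CPM. The split rests on raw UMI sums of the lists, and a part of the mix of cells in the lower levels was not tested.

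**Figure D5:**
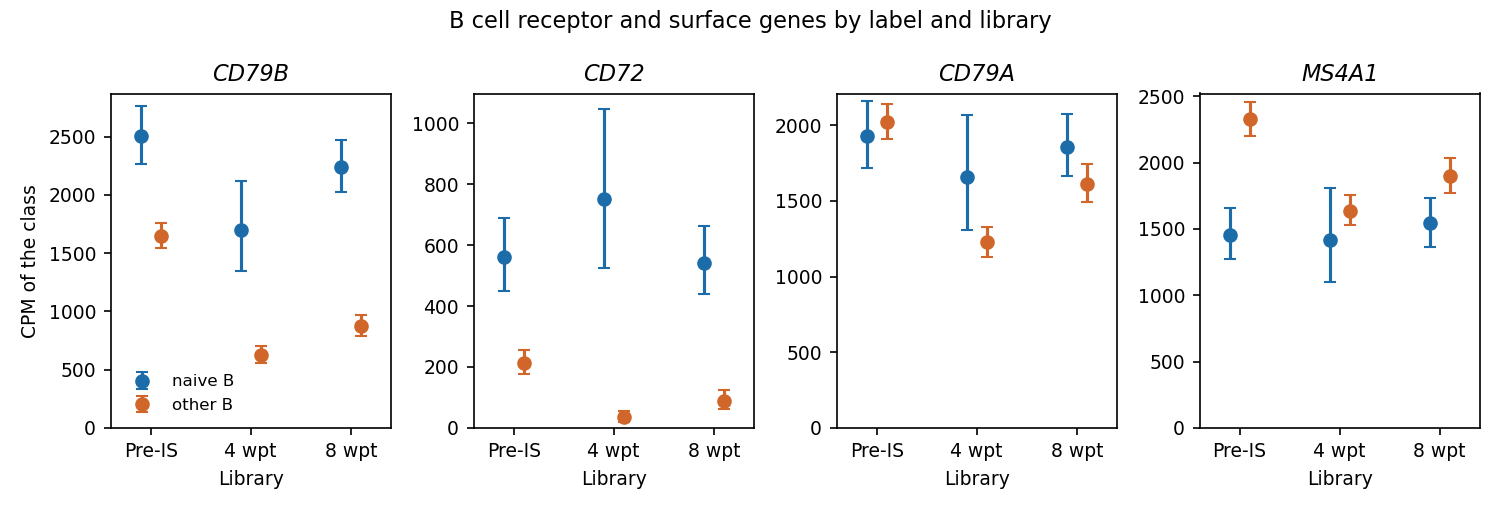
CPM of CD79B, CD72, CD79A and MS4A1 in naive and other B cells of Pre-IS, 4 wpt and 8 wpt; points are class values and bars exact 95% Poisson intervals that cover counting error only, with 14 naive B cells at 4 wpt. CD79B in naive B cells lies between 1699 and 2502 CPM, while in other B cells it goes from 1648 CPM in Pre-IS to 626 and 874 CPM.

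Markers of other cell types were measured in the B classes, since droplets with cells of 2 types or free RNA can carry them. Of 13 NK cell genes, 6 held a UMI in naive B cells of Pre-IS and 12 at 8 wpt, with summed levels of 132 and 571 CPM, against 734 and 964 CPM in other B cells. At 8 wpt 1 naive B cell held 79.2% of those NK UMIs, and FCGR3 was at 0 in naive B cells of both libraries. Within naive B cells the 3 NK genes compared were all higher at 8 wpt (background 11.3% higher), with a median log2 ratio of 3.30 (3.01 with the floor). Among them, GZMB had 25 of its 27 naive UMIs at 8 wpt in 1 cell. Of 12 T cell genes, 7 held a UMI in naive B cells of Pre-IS and 5 at 8 wpt, at 170 and 45.2 CPM in sum against 223 and 213 in other B cells, and BCL11B was at 0 in each.

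Of 13 monocyte genes, 8 held a UMI in naive B cells of Pre-IS and 9 at 8 wpt, at 227 and 294 CPM against 713 and 547, with CSF1R at 0 in naive B cells of both. Of 8 genes of plasmacytoid dendritic cells, 3 and 4 held a UMI in naive B cells, at 114 and 373 CPM against 337 and 773, with CLEC4C at 0 in each. Platelet genes summed to 37.8 and 50.9 CPM in naive B cells, and red cell genes to 56.7 and 39.6 CPM against 242 and 1446 CPM in other B cells, of which 1 cell held 58.7% at 8 wpt. Neutrophil genes summed to 0 and 11.3 CPM in naive B cells. The share of these markers in the differences described above was not tested beyond leaving out the cells that carried at least 2 T cell, NK cell or monocyte markers, of which 3 were naive B cells.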

How the data were processed

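The deposited tables hold raw UMI counts per gene and cell barcode for 4 PBMC libraries and the authors' cell labels. Per the submitters' processing notes, the tools were Cell Ranger (3.1.0) and Seurat (3.2.3) and the build was Mmul_10, with no roles given. The tables hold 15354 gene rows. Of these, 2559 have an Ensembl ID but no symbol; a table of gene names resolved 400, and 2159 stayed unnamed. Cells and labels were used as deposited. No doublet caller was run; cells with UMIs of at least 2 T cell, NK cell or monocyte marker genes were left out as an alternative.

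Counts were summed per label and library and scaled to CPM by total UMIs (Python 3.11.15, numpy 2.4.6, scipy 1.17.1, pandas 2.3.3). Genes with at least 20 UMIs over both classes were compared, and a ratio past 1.5-fold counted as higher or lower. Log2 ratios carry an offset of 0.5 UMIs in each class. It draws the UMI counts of both classes together, which can lower or raise the ratio of low genes because the class totals differ. For a gene at 0 UMIs in 1 class the log2 ratio can exceed the ratio against the floor. Class levels carry Poisson, shares Clopper-Pearson and ratios conditional binomial exact 95% intervals. For ratios given as "at least" and for medians with the floor, a class at 0 was set to a floor of 3 UMIs. Genes were named by the rank of the interval bound nearest to 1, up to 12 per direction between classes and 6 over time. These bounds had to lie past 1.5-fold. A gene also needed UMIs in 5% of the cells of a class and at least 10% of the CPM of the highest label in 1 class. Ribosomal, mitochondrial, haemoglobin, immunoglobulin and T cell receptor genes and genes without a symbol were left out. Members of 26 lists were named as well. The members, lists and markers were chosen with earlier results of these data known. Nothing in the labels says that libraries came from separate animals, and there is 1 library per group.

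Alternatives were edgeR 4.0.16 TMM and DESeq2 1.42.0 median-of-ratios scaling (R 4.3.3), totals without ribosomal, mitochondrial, haemoglobin and immunoglobulin genes, thinning to 1000 UMIs, equal weight per cell, other minimums, offsets and folds, and leaving out cells. The ratio script was checked on simulated data. Sequences and coordinates were not used here. One gene that the rule names and a few list members are not reported here by name; the counts include them.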

Additional observations from a re-analysis of the deposited data

How the results depend on the processing

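Shares of naive B cells moved by less than their intervals under all 32 recalculations, from 5.37% to 5.72% of cells in Pre-IS and from 3.78% to 3.85% at 8 wpt. The naive B list median ranged from 0.65 to 1.20 in Pre-IS and 1.00 to 1.86 at 8 wpt, the memory B list median from -2.37 to -1.95 and -2.91 to -2.53.

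Counts of genes past the threshold depended on depth and on the minimum. For naive over other B cells in Pre-IS the higher genes were 318 after thinning, 166 with at least 50 UMIs, 2464 with at least 1 and 208 at 2-fold, and the lower genes 798, 499, 2811 and 650, with 813 at an offset of 2. At 8 wpt the same 4 settings gave 282, 150, 2345 and 214 higher and 590, 436, 3111 and 546 lower. Over time in naive B cells they gave 159, 38, 2536 and 78 higher and 144, 44, 2622 and 77 lower. In other B cells 50 UMIs, 1 UMI and 2-fold gave 173, 2323 and 158 higher and 201, 2463 and 185 lower, with 395 lower after thinning. An offset of 2 made 48.8% of the Pre-IS calls higher, and a minimum of 1 made 46.7%, and 43.0% at 8 wpt. The lower counts at 50 UMIs follow from fewer genes compared; otherwise the cause was not tested.

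Signs turned for the T cell list in Pre-IS (0.28 with a minimum of 1 UMI, against -0.84 with 20), CCT4 over time in other B cells (-0.52 thinned), C10orf143 there (0.10 with equal weight per cell) and CD72 over time in naive B cells (0.088 thinned). CD79B in Pre-IS, 1.52-fold higher in naive B cells, came under 1.5-fold in 4 settings (log2 ratio 0.52 to 0.57). The alternatives that leave out JCHAIN-rich cells and that split the other B cells were chosen after seeing the data. Only among the other B cells with the memory sum above the naive sum, CD79B over time had a log2 ratio of -1.15 and CD72 of -1.43, and CD72 in naive over other B cells one of 3.72 at 8 wpt. Depth limits single genes: 3 UMIs correspond to 18.9 CPM in naive B cells of Pre-IS, 64.5 at 4 wpt and 17.0 at 8 wpt, and 1 naive B cell in Post-IS allowed no gene comparison. No paired analysis was possible because each group has 1 library and the labels carry no replicate numbers.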

Other observations

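Other B cells held UMIs of unnamed genes that were concentrated in a few cells, as was JCHAIN. ENSMMUG00000063695, an identifier that neither the files nor the name table pairs with a symbol, had 4319 UMIs in other B cells of Pre-IS, of which 1 cell held 4300, or 43.3% of that cell's UMIs. A further unnamed gene, ENSMMUG00000040771, was spread over many cells and lower in naive B cells, with a UMI in 20 of 110 naive and 308 of 351 other B cells of Pre-IS and in 7 of 99 and 140 of 178 at 8 wpt. Its levels were 214 CPM in naive and 2670 in other B cells of Pre-IS and 50.9 and 1667 at 8 wpt. Both genes were chosen after their values were seen.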
